A study of Mus musculus with 2 samples.

Results

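The 10 genes described here make up the interleukin-1 axis and its activating machinery: the cytokine genes Il1a, Il1b and Il18, the antagonist gene Il1rn, the receptor genes Il1r1, Il1r2 and Il1rap, and the inflammasome genes Nlrp3, Casp1 and Casp4. They were chosen by symbol from the 55357 genes of the deposited matrices, and all 10 were found. Lungs of female BALB/c mice carrying orthotopic tumours of K7M2, a mouse osteosarcoma line, were dissociated and profiled by droplet single-cell RNA sequencing on the 10x Genomics platform. One group had received 1V209-Cho-Lip, a preparation of 1V209, which is a synthetic agonist of Toll-like receptor 7, and the control group had received phosphate-buffered saline (PBS). Both groups carried the tumour, so no tumour-free lung is part of the comparison. Age, dose and time after treatment were not given in the sources used here. The lungs of 3 mice were pooled in 1 library per group. There is therefore no replicate check of any difference, no p-value is given, and the 95% intervals cover counting error only.

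Interleukin-1 beta and interleukin-18 are made as inactive precursors. Inflammatory caspases, assembled on sensors such as NLRP3, cut them into secreted cytokines. Interleukin-1 alpha is active as a precursor and is released from damaged cells. Both interleukin-1 cytokines signal through a receptor made of IL1R1 and the shared accessory chain IL1RAP, and 2 brakes act on them: the antagonist IL1RN blocks the receptor, and the decoy receptor IL1R2 captures the cytokine without signalling. Neutrophils, monocytes and macrophages are the best known sources of interleukin-1 beta in inflamed lung, and Toll-like receptor signals induce its transcript.

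Il1a and Il1b are neighbours on chromosome 2 and are read in the same direction. In mm10 (GENCODE vM21), Il1a lies at chr2:129299610-129309972 and Il1b at chr2:129364570-129371139, both on the minus strand, with 54597 bases between them. The 250 bases before each start, from the RefSeq promoter table on GRCm38.p6, are shown because these neighbouring cytokine genes differed in the cell classes that held them. Capitals mark a TATA box (TATAAA) and an AP-1 motif (TGANTCA), the 2 motifs found in them among 6 searched on both strands.
Il1a, chr2:129309973-129310222, minus strand: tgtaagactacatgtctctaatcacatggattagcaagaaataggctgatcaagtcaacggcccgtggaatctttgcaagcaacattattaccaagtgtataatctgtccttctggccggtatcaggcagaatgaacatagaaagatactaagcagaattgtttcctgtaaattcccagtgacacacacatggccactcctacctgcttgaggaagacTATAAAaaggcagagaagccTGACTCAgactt
Il1b, chr2:129371140-129371389, minus strand: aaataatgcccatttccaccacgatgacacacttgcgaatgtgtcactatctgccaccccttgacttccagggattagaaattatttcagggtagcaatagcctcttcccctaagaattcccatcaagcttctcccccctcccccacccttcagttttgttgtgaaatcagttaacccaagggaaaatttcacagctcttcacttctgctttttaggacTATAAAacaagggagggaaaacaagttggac

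The TATA box stood 32 bases before the start of Il1a and 31 bases before that of Il1b. TATAAA was present in 12.4% of all 32851 promoters of the same length. The AP-1 motif stood 12 bases before the Il1a start, was absent from the Il1b window, and was present in 6.75% of all promoters. AP-1 is the dimer of FOS and JUN family factors. Among the other members, a TATAAA match on the opposite strand lay 175 bases before the RefSeq Il18 start, and TGAGTCA lay 141 bases before 1 of the Il1rn starts. That Il18 start lies upstream of the GENCODE gene start given below. Its first bases were not found at the start of a GENCODE transcript of the members. A kappaB motif, the binding letters of NF-kappaB, was found in 3.90% of all promoters, at starts of Il1r1, Nlrp3 and Casp4; in Casp4 it lay 92 bases before the start. The C/EBP motif TTGCNNAA, found in 9.56% of all promoters, occurred once, as TTGCTGAA, 133 bases before a start of Il1r1. The ISRE and the PU.1 motif GAGGAAGT, in 2.98% and 2.44% of all promoters, matched none of the members, and the Il1r2, Il1rap and Casp1 windows held none of the 6 motifs. These matches describe letters only.

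The other members lie apart, except for pairs of neighbours. Il1r2 (chr1:40074079-40125231) and Il1r1 (chr1:40225080-40317257) follow each other on the plus strand of chromosome 1. Casp1 (chr9:5298517-5307265) and Casp4 (chr9:5308828-5336783) do so on chromosome 9, which also carries Il18 (chr9:50554827-50581840, plus strand). Il1rn is at chr2:24336853-24351494, Il1rap at chr16:26581704-26730117 and Nlrp3 at chr11:59541568-59566956, all on the plus strand. The antisense gene Il1bos overlaps Il1b by 1243 bases. It held 1894 and 701 UMIs (unique molecular identifiers, the counted RNA molecules) in the treated and PBS libraries, 0.651% and 0.914% of the Il1b counts. Whether the counting used strand is not given in the sources used here.

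After filtering and removal of called doublets, 12265 treated and 12654 PBS cells remained. They held 46108049 and 46481928 UMIs, and the median cell held 2506 in the treated and 2198 in the PBS lung. Clusters were named from marker genes as neutrophil-like, monocyte-like and so on. The comparison took the 21 classes that reached 50 cells in both libraries. The class called interstitial macrophage-like here also takes in monocyte-derived macrophages, and AT1-like and AT2-like cells are those of the alveolar epithelium. The 1428 treated and 1348 PBS cells outside these classes were not compared. Neutrophil-like cells were 4178 of the treated cells (34.1%) and 1504 of the PBS cells (11.9%). Their marker S100a8 was found in 99.0% and 97.5% of them. Levels are given as CPM, the summed UMIs of a gene in a class scaled to the class total, treated before PBS. A gene was measured where both libraries together gave at least 20 UMIs, and counted as higher or lower at a CPM ratio of at least 1.5-fold. The libraries shared 268 barcodes, 210 of them among kept cells.

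Over whole libraries, 5 of the 10 members were higher in the treated lung and 0 were lower, where 14.0% of the 20415 measured genes were higher and 20.2% lower. The 5 were Il1b, Il1r2, Il1rap, Nlrp3 and Il1rn. The median log2 ratio of the members was 0.78 against -0.20 over all measured genes. Scaling by TMM or by median of ratios moved all log2 ratios up by 0.20, and 7 members were then higher, with Il1a at 1.65 and Casp4 at 1.65 joining the 5. In these sums, as in bulk RNA, more cells of a type and more RNA per cell cannot be told apart.

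Il1b stood at 6306 against 1650.2 CPM, a ratio of 3.82 (3.79 to 3.85). The decoy gene Il1r2 stood at 986 against 276 CPM, a ratio of 3.58 (3.51 to 3.65). The accessory chain gene Il1rap had 130.0 against 43.6 CPM (2.98, 2.84 to 3.14). These cytokine, decoy and accessory genes had the highest ratios of the 10. Nlrp3, the sensor gene, had 346 against 141 CPM (2.46, 2.39 to 2.53). Il1rn had 113 against 55.5 CPM (2.04, 1.94 to 2.14). The other 5 stayed within 1.5-fold: Il1a at 1.44 and Casp4 at 1.44 leaned upward, and Casp1 at 0.847, Il1r1 at 0.799 and Il18 at 0.727 leaned downward.

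These ratios went with the makeup of the lungs. When each class was given the same share of cells in both libraries, 0 of the 10 members passed 1.5-fold. Il1b then stood at 1.04 and Il1rap at 1.31, while Il1r2 at 0.869, Nlrp3 at 0.874 and Il1rn at 0.733 lay on the other side of 1. The neutrophil marker S100a8 was 7.58-fold higher over whole libraries. Without neutrophil-like cells the sums still gave 3.18 for Il1b, 4.46 for Il1r2, 2.08 for Il1rap, 1.84 for Nlrp3 and 1.59 for Il1rn. These sums kept the cells outside the compared classes, which held 8.79% of treated and 8.23% of PBS Il1b UMIs. Among them were unnamed cluster 26 (214 treated and 45 PBS cells, Il1b at 12257 and 12248 CPM) and mixed cluster 80 (71 and 10 cells). Cluster 80 had the neutrophil marker Cxcr2 among its leading genes. Their part in the remaining ratios was not tested.

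**Figure D1:**
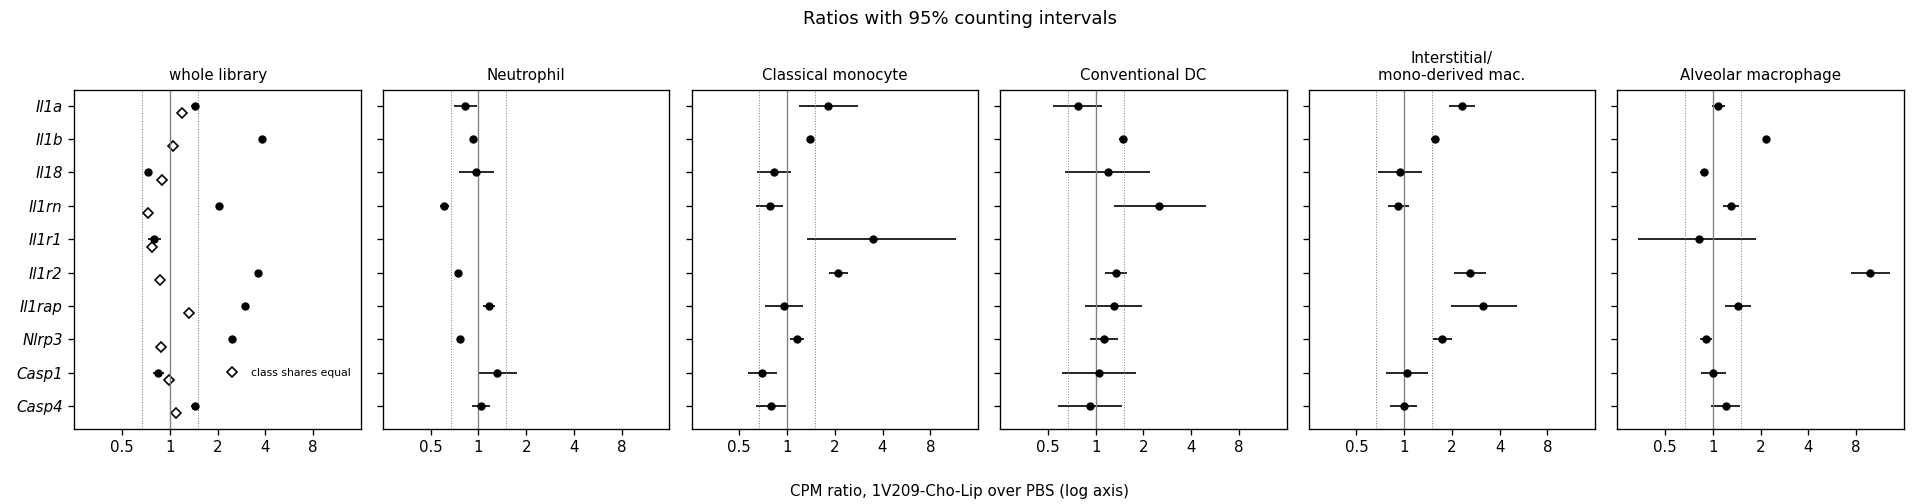
CPM ratios, 1V209-Cho-Lip over PBS, on a log axis for each measured member in the whole library and 5 classes (interstitial macrophage-like cells are shown as Interstitial/mono-derived mac.). Filled points carry 95% counting intervals, open diamonds give the ratio with class shares set equal, and dotted lines mark 1.5-fold in either direction. In the whole library Il1b, Il1r2, Il1rap, Nlrp3 and Il1rn lie right of the upper line, and their diamonds lie between the lines.

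The members divided into groups by the cells that held their UMIs. Neutrophil-like cells held 78.5% of treated and 68.0% of PBS Il1b UMIs, and 78.5% and 78.6% of those of Il1r2. They also held 66.5% and 44.4% of Nlrp3, 65.8% and 45.7% of Il1rn, and 62.4% and 33.2% of Il1rap. For Il18, alveolar macrophage-like cells held 70.5% and 84.8%. Il1a was spread over alveolar macrophage-like (27.3% and 53.1%), neutrophil-like (25.6% and 9.35%), interstitial macrophage-like (15.9% and 8.27%) and endothelial classes (15.7% and 17.0%). Il1r1 was the member with the smallest neutrophil-like share, 1.75% and 0.641%. Fibroblast, muscle and mesothelial classes held 36.0% and 20.4% of its UMIs, lymphoid classes 19.0% and 18.9%, and endothelial classes 12.8% and 17.6%. For Casp1 and Casp4 no class held the greater part. Of the treated UMIs, neutrophil-like cells held 27.0% for Casp1 and 41.7% for Casp4, and of the PBS UMIs 3.65% and 12.1%.

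**Figure D2:**
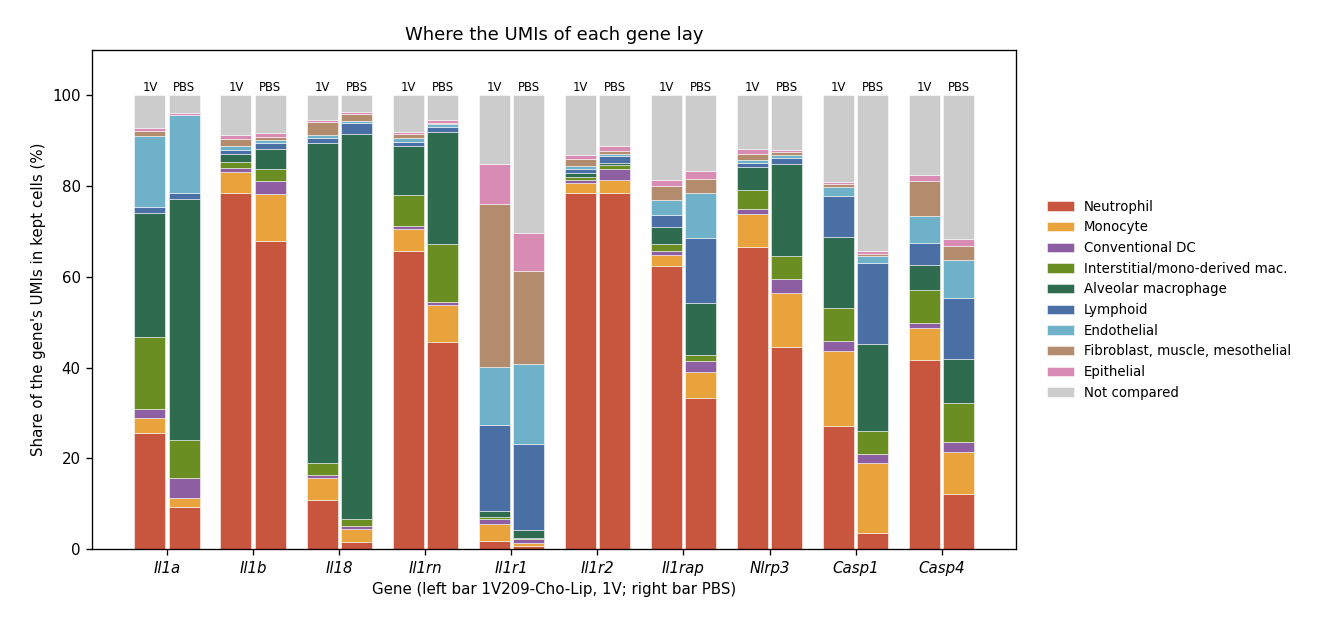
Share of each member's UMIs (percent of the kept cells' total) held by groups of classes, with the treated library (1V) at the left and PBS at the right of each pair. Neutrophil-like cells hold most Il1b and Il1r2 in both libraries, alveolar macrophage-like cells most Il18, and neither group most Il1r1.

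Within neutrophil-like cells the picture differed from that of the whole lung. None of the 9 measured members was higher and 1, Il1rn, was lower, where 11.5% of genes were higher and 23.1% lower in this class; the median log2 ratio was -0.12 for the members and -0.20 for all genes. Il1b was found in 99.95% and 99.7% of the cells at 21227 and 23121 CPM, a ratio of 0.918 (0.909 to 0.927) that lay on the other side of 1 with TMM (1.11) and median-of-ratios scaling (1.04). Il1r2 had 3318 and 4465 CPM (0.743, 0.727 to 0.760), and Nlrp3 987 and 1289.5 CPM (0.766, 0.735 to 0.798). Both stayed below 1 under these scalings. The antagonist Il1rn had 319 and 523 CPM (0.611, 0.571 to 0.653), or 0.736 with TMM and 0.690 with median-of-ratios scaling, both inside the 1.5-fold limit. Il1rn was found in 41.6% and 42.4% of cells; with every cell thinned to 1000 UMIs the shares were 23.6% and 33.8%, beside median depths of 2326 UMIs in treated and 1395 in PBS neutrophil-like cells. With TMM, Casp1 at 1.57 was the 1 member past 1.5-fold. Il1rap, at 348 and 298 CPM (1.17, 1.07 to 1.27), was the reverse case among the abundant members. It was found in 49.6% and 30.8% of cells, or 27.4% and 23.9% after thinning. Casp4 had 121 and 117 CPM, Il18 33.9 and 35.0 CPM, Casp1 33.6 and 25.7 CPM, and Il1a 65.9 and 80.3 CPM. Il1r1 gave 13 and 6 UMIs in all neutrophil-like cells, too few to be measured.

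Neutrophil-like cells formed 7 clusters whose shares differed between the libraries. Cluster 2, led by Il23a and Ccrl2, held 17.6% of the treated and 61.4% of the PBS neutrophil-like cells. Cluster 6, led by the cystatin-family genes Stfa2 and Cstdc5, held 23.5% and 1.86%. Cluster 9, led by Rdh12 and Nlrp12, held 20.1% and 3.06%, and cluster 1, led by Entpd3 and Acod1, 35.3% and 29.9%. Il1b followed these clusters. It stood at 28127 and 25139 CPM in cluster 2, at 24126 and 23134 CPM in cluster 1, at 21583 and 21123 CPM in cluster 9 and at 17632 and 15389 CPM in cluster 6. Each of these 4 clusters had a ratio above 1, while the sum over the class had 0.918. Weighting the clusters alike in both libraries, an alternative chosen after seeing the data, gave 1.09 for Il1b in place of 0.918.

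Cluster 52, led by the granule genes Ngp, Camp and Ltf of maturing neutrophils, had 53 and 14 cells and the lowest Il1b of the neutrophil-like clusters, 2125 and 2229.6 CPM. Its Il1r2 was 785 and 924 CPM, its Nlrp3 119.8 and 79.6 CPM, and it held 0 Il1a UMIs. Il1rn was below 1 in each of the 6 clusters with at least 10 cells in each library, from 0.590 in cluster 9 to 0.910 in cluster 2. With clusters weighted alike it stood at 0.805, inside the 1.5-fold limit. Il1rap was above 1 in each of the 6, from 1.17 in cluster 2 to 2.48 in cluster 6, where the PBS library held 7 UMIs. Il1r2 was below 1 in 5 of the 6 and at 1.18 in cluster 6. Il1a took either side, at 2.20 (1.54 to 3.24) in cluster 1 and 0.213 (0.0860 to 0.486) in cluster 41, with 9 and 21 UMIs in the latter. Weighting clusters alike moved Il1a from 0.821 to 1.48.

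**Figure D3:**
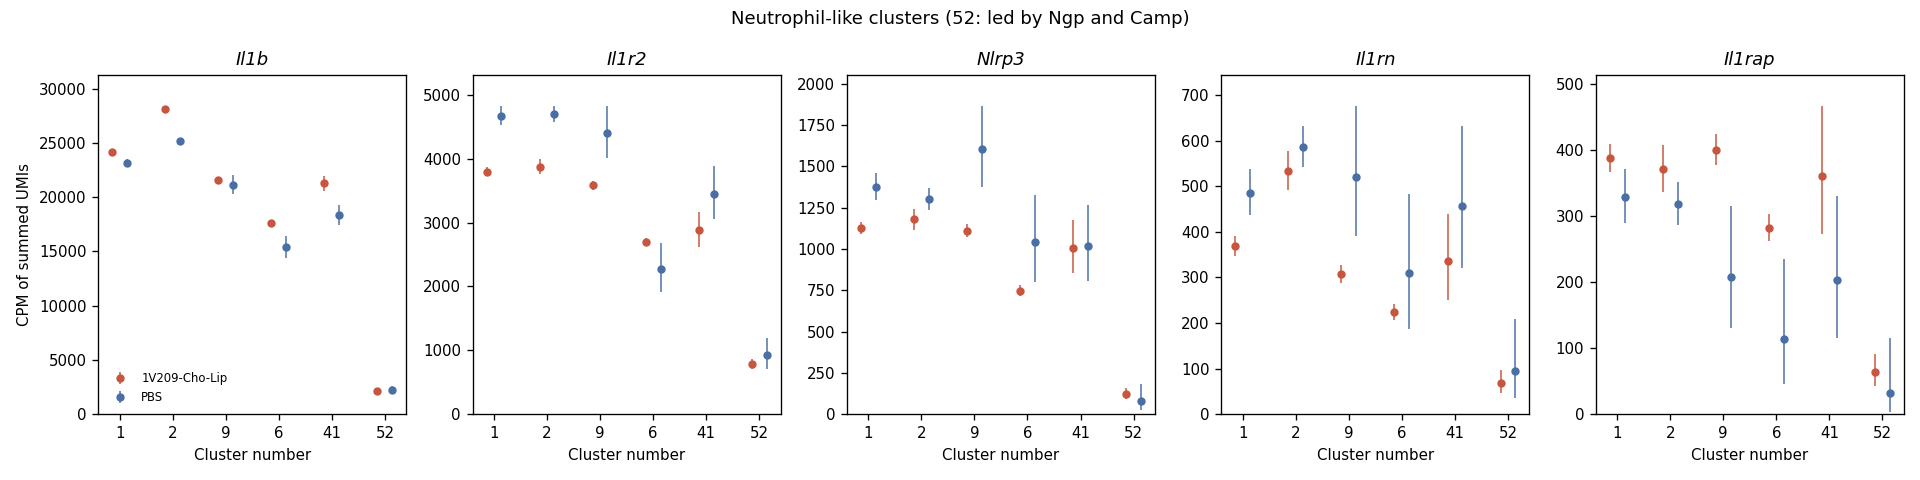
CPM of 5 members in the 6 neutrophil-like clusters with at least 10 cells in each library, treated in red and PBS in blue, with 95% Poisson intervals. Cluster 52, led by Ngp and Camp, is the lowest for Il1b at 2125 and 2229.6 CPM, and cluster 2 the highest at 28127 and 25139 CPM.

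Among the compared classes other than neutrophil-like cells, Il1b was highest in the monocyte- and dendritic-like classes of both libraries. Nonclassical monocyte-like cells had 3820.0 and 2688 CPM (1.42, 1.34 to 1.51), and Il1b was found in 96.2% and 89.0% of them. Classical monocyte-like cells had 3489.8 and 2493 CPM (1.400, 1.35 to 1.45), conventional dendritic cell (DC)-like cells 3011 and 2011 CPM (1.497, 1.41 to 1.59, just under the limit), and interstitial macrophage-like cells 2245 and 1435 CPM (1.56, 1.48 to 1.65). Alveolar macrophage-like cells stood lowest of these at 1356 and 622 CPM (2.18, 2.09 to 2.28). A cluster of 24 treated and 1 PBS cells in this class held 1435 treated Il1b UMIs, at 5762 CPM. Without it, an alternative chosen after seeing the data, the class had 1042 and 614 CPM (1.70, 1.62 to 1.78). In the PBS library the counting intervals of these 5 classes did not overlap. Over all 21 classes Il1b was higher in 16 and lower in 0, the highest ratio being 41.9 in mesothelial-like cells, with 651 and 9 UMIs. The treated level was also high in smooth muscle-like cells (2734 and 139 CPM) and pericyte-like cells (2451 and 563 CPM).

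Neutrophil RNA moved with these values. T, B, NK and both capillary endothelial-like classes are not among the best known Il1b sources. In these classes an Il1b UMI was found in 44.7% to 48.9% of treated and 12.9% to 14.5% of PBS cells. An S100a8 UMI was found in 47.4% to 51.7% and 7.39% to 8.59%. The 3 genes of the neutrophil RNA list (S100a8, S100a9 and Retnlg) were all higher in 15 of the 21 classes. Outside neutrophil-like cells their summed level ran from 558 to 13121 CPM (treated) and from 40.7 to 2851 CPM (PBS). In PBS mesothelial-like cells 1 of the 3 was at 0, and in no other class was any. In those 5 classes there were 80.0 to 107 Il1b UMIs per 100 S100a8 UMIs (treated) against 107 to 173 (PBS). Neutrophil-like cells themselves had 38.6 and 69.4, each below the range of its library.

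Apart from treated interstitial macrophage-like cells, the monocyte-, macrophage- and dendritic-like classes stood above the range of those 5 lymphoid and endothelial classes. The treated library had 744 Il1b UMIs per 100 S100a8 UMIs in nonclassical monocyte-like cells, 683 in conventional DC-like, 220.2 in classical monocyte-like and 126 in alveolar macrophage-like cells. Interstitial macrophage-like cells, at 106.1, lay within the range of the lymphoid and endothelial classes above. In the PBS library these monocyte-, macrophage- and dendritic-like classes had 352 to 1719. Standing above the range was not particular to them. Gamma-delta T-like (137) and pericyte-like cells (150) also did so in the treated library. In the PBS library AT1-like (432), smooth muscle-like (375), adventitial fibroblast-like (272), mesothelial-like (225) and regulatory T-like cells (214) did, each with at most 31 S100a8 UMIs. A second value leaves out cells of other classes that held at least 5 S100a8 and S100a9 UMIs. It gave Il1b ratios of 1.42 in nonclassical monocyte-like, 1.32 in classical monocyte-like, 1.38 in conventional DC-like, 1.25 in interstitial macrophage-like and 1.501 in alveolar macrophage-like cells. In smooth muscle-like cells the ratio went from 19.6 to 2.10, and in mesothelial-like cells from 41.9 to 4.05. AT1-like cells, among the 16 that were higher, had 0.678 (0.522 to 0.885) by this value, from 152 and 96 UMIs. How far neutrophil RNA makes up what remains was not tested.

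**Figure D4:**
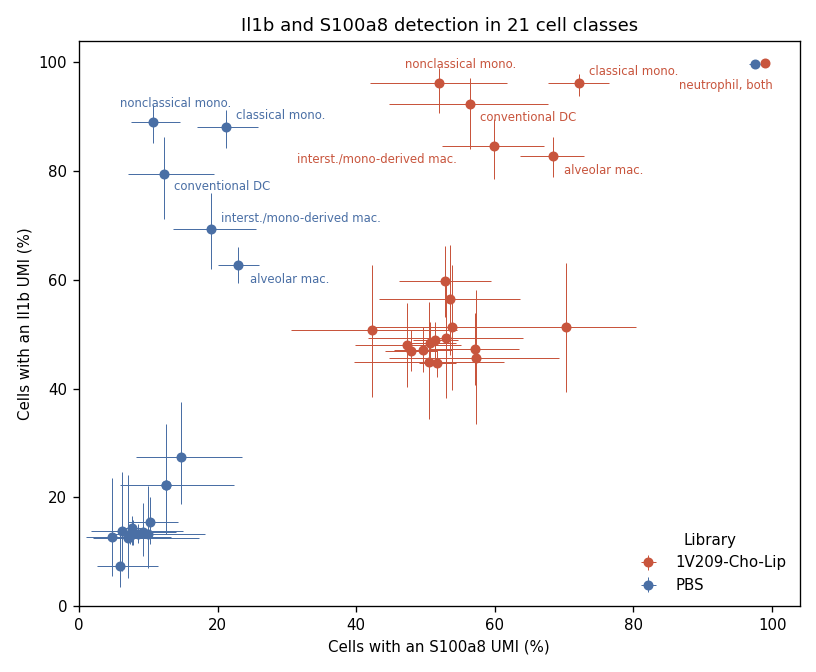
Percent of cells with at least 1 Il1b UMI against percent with at least 1 S100a8 UMI in each of 21 classes, with exact binomial 95% intervals, treated in red and PBS in blue. The unlabelled classes lie between 44.7% and 59.8% for Il1b in the treated library and between 7.41% and 27.4% in the PBS library, and the monocyte-, dendritic- and macrophage-like classes lie above them in both.

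Il1a had its highest levels in classes other than neutrophils. In alveolar macrophage-like cells it stood at 202 and 186 CPM (1.08, 0.984 to 1.19) and was found in 54.8% and 46.0% of cells. Interstitial macrophage-like cells had 259 and 113 CPM (2.30, 1.92 to 2.78). That difference rested on 1 cluster, led by Prg4 and Alox15, with 29 treated and 1 PBS cell: without it the ratio was 1.30. Car4 capillary endothelial-like cells, the capillary type that lines the gas exchange surface, held Il1a at 193 and 123 CPM (1.57, 1.35 to 1.83), in 28.8% and 24.5% of cells. General capillary endothelial-like cells, their neighbours in the same vessels, had 10.7 and 8.31 CPM (31 and 27 UMIs), in 1.70% and 1.68% of cells. S100a8 was found in 47.9% and 7.84% of Car4 capillary cells and 51.7% and 8.59% of general capillary cells. The S100a8 level was 784 and 78.4 CPM in the former and 427 and 65.3 CPM in the latter, and the part of neutrophil RNA in the Il1a values was not tested. Without cells holding at least 5 S100 UMIs, as above, Il1a had 203 and 123 CPM in Car4 capillary cells and 9.74 and 8.40 CPM in general capillary cells. Conventional DC-like cells had 65.6 and 84.8 CPM and classical monocyte-like cells 27.2 and 15.04 CPM (1.81, 1.19 to 2.82). Of 10 classes with enough UMIs, 6 were higher and 0 lower, and the highest ratio, 10.8 (1.76 to 444) in alveolar fibroblast-like cells, came from 24 and 1 UMIs.

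Il18 was an alveolar macrophage and mesothelial transcript in both lungs. Alveolar macrophage-like cells had 637 and 724 CPM (0.880, 0.836 to 0.926), in 91.5% and 89.8% of cells. Mesothelial-like cells, the lining of the pleura, had 111 and 163 CPM (0.680, 0.480 to 0.964), in 50% and 52.4% of cells. Classical monocyte-like (47.5 and 57.2 CPM), interstitial macrophage-like (50.7 and 54.2 CPM) and neutrophil-like cells followed, and the counting intervals of the first 2 overlapped. Of 11 measured classes 1 was higher, nonclassical monocyte-like cells at 1.82 from 12 and 15 UMIs, and 1 lower, T cell-like cells at 0.320 (0.110 to 0.767) from 6 and 36 UMIs. The lower whole-library level of Il18 went with 414 treated against 837 PBS alveolar macrophage-like cells.

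The antagonist gene Il1rn followed neutrophils with the macrophage classes. Interstitial macrophage-like cells had 212 and 232 CPM (0.916, 0.787 to 1.07), alveolar macrophage-like cells 150.2 and 116 CPM (1.30, 1.16 to 1.46) and classical monocyte-like cells 71.7 and 92.2 CPM (0.778, 0.640 to 0.946). None of these 3 passed 1.5-fold. Conventional DC-like cells had 36.4 and 14.6 CPM (2.49, 1.30 to 4.98) from 30 and 15 UMIs. Their ratio was 0.350 when cells were assigned one by one from markers, so its direction is not settled. Of 11 measured classes 6 were higher, 5 of them with 23 UMIs or fewer in either library, and 1 was lower.

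The decoy gene Il1r2 was highest in neutrophil-like cells. Among the remaining classes of blood origin, conventional DC-like cells had 394 and 293 CPM (1.34, 1.14 to 1.57), in 71.8% and 46.7% of cells. Classical monocyte-like cells had 286 and 136 CPM (2.10, 1.84 to 2.41) and interstitial macrophage-like cells 185 and 71.1 CPM (2.60, 2.07 to 3.29). Alveolar macrophage-like cells had 108 and 11.1 CPM (9.78, 7.46 to 13.03). A single cluster of 24 treated and 1 PBS cells held 229 of the 406 treated UMIs, at 919 CPM. Without it, an alternative chosen after seeing the data, the class had 50.6 and 8.37 CPM (6.04, 4.35 to 8.55). It was higher in 16 of 20 measured classes and lower in 0, the same count as for Il1b. In the 5 lymphoid and endothelial classes there were 8.89 to 15.7 Il1r2 UMIs per 100 S100a8 UMIs (treated) against 16.5 to 29.3 (PBS). Conventional DC-like cells had 89.3 and 209.03, and alveolar macrophage-like cells 10.0 and 17.6, inside the ranges of those 5 classes. Neutrophil-like cells had 6.03 and 13.4. Without cells holding at least 5 S100 UMIs, the ratio was 1.37 in conventional DC-like, 1.52 in classical monocyte-like and 1.27 in interstitial macrophage-like cells. It was 1.98 in alveolar macrophage-like and 1.24 in regulatory T-like cells. Smooth muscle-like cells, second in level at 474 CPM in the treated library, had 87 and 2 UMIs. Mesothelial-like cells had 96 and 0 UMIs, a ratio of 18.6 against a floor of 3 counts. The counting interval of that ratio, taken without the floor, began at 14.8. Pericyte-like cells had 385 and 116 CPM (3.33, 1.85 to 6.37). Without cells holding at least 5 S100 UMIs, 5 and 2 UMIs were left in smooth muscle-like, 9 and 0 in mesothelial-like and 8 and 0 in pericyte-like cells.

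The signalling receptor gene Il1r1 lay outside the myeloid classes. Gamma-delta T-like cells, innate-like lymphocytes that respond to interleukin-1, had 277 and 266 CPM (1.04, 0.760 to 1.43), in 47.9% and 43.7% of cells. Adventitial fibroblast-like cells had 164 and 179 CPM (0.915, 0.643 to 1.31), in 38.6% and 48.6%. In both libraries these 2 classes had the highest levels; their intervals overlapped each other in the PBS library and not in the treated one. Alveolar fibroblast-like cells came next, overlapping adventitial fibroblast-like cells in the PBS library only, with 75.7 and 124 CPM (0.612, 0.478 to 0.787), and 155 and 114 UMIs. Thinned to 1000 UMIs per cell their ratio was 0.679.

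Regulatory T-like cells had 46.1 and 17.5 CPM (2.64, 1.49 to 4.83) from 39 and 19 UMIs. That call was lost with a coarser clustering (1.47) and with thinning (1.29). Cluster 82 of this class, led by Ikzf2 and Dach2 and without Foxp3 among its 10 leading genes, held 10 of the 39 and 11 of the 19 UMIs, in 16 and 20 cells. Without it, an alternative chosen after seeing the data, the ratio was 4.75 (2.12 to 12.03) from 29 and 8 UMIs. Cluster 44, with H1f5, Kif15 and Nusap1 among its 10 leading genes, also lacked Foxp3 there. It had 35 of the 99 treated and 53 of the 206 PBS cells of the class. Its median was 10555.5 UMIs per cell, against class medians of 4903 and 3435.5, so it weighs heavily in every CPM of this class. Its Il1r1 was 20.8 and 3.50 CPM, from 12 and 2 UMIs. Mesothelial-like (36.9 and 33.1 CPM), AT2-like (23.2 and 32.8 CPM) and Car4 capillary endothelial-like cells (23.4 and 31.8 CPM) had overlapping intervals within each library. General capillary endothelial-like cells had 15.9 and 26.8 CPM (0.593, 0.405 to 0.857), and AT1-like cells 15.8 and 29.0 CPM (0.543, 0.215 to 1.44) from 13 and 9 UMIs. Over 13 measured classes Il1r1 was higher in 3 and lower in 3. Neutrophil-like cells gave 1.21 and 2.66 CPM of this gene.

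The accessory chain gene Il1rap was spread over myeloid, endothelial and structural classes. After neutrophil-like cells, smooth muscle-like cells had 114 and 92.9 CPM (21 and 10 UMIs), Car4 capillary endothelial-like cells 63.1 and 60.8 CPM (1.04, 0.815 to 1.32), and conventional DC-like cells 62.0 and 47.8 CPM (1.30, 0.859 to 1.96). Alveolar macrophage-like cells had 60.5 and 42.1 CPM (1.44, 1.19 to 1.73). Interstitial macrophage-like cells had 53.0 and 16.9 CPM (3.14, 1.98 to 5.15), and 2.04 without cells holding at least 5 S100 UMIs. Il1rap was higher in 5 of 18 measured classes and lower in 0.

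Among the compared classes, Nlrp3 was highest in neutrophil-, monocyte-, macrophage- and dendritic-like cells. Interstitial macrophage-like cells had 395 and 227 CPM (1.74, 1.52 to 1.99), the only myeloid class past 1.5-fold. The ratio was 1.91 without cells holding at least 5 S100 UMIs. The Prg4-led cluster, with 29 treated and 1 PBS cell, held 219 treated Nlrp3 UMIs at 596 CPM. The rest of the class had 339 and 226 CPM. Classical monocyte-like cells had 328 and 284 CPM (1.15, 1.04 to 1.28), conventional DC-like cells 232 and 205 CPM (1.13, 0.927 to 1.39), alveolar macrophage-like cells 218 and 241 CPM (0.903, 0.826 to 0.986) and nonclassical monocyte-like cells 172 and 188 CPM (0.912, 0.693 to 1.19). Nlrp3 was higher in 12 of 19 measured classes and lower in 0. The other 11 were lymphoid, endothelial, epithelial or structural classes, with at most 87 treated and 35 PBS UMIs each. In mesothelial-like cells Nlrp3 had 43 and 0 UMIs, a ratio of 8.31 against the floor of 3 counts. In smooth muscle-like cells it had 23 and 0 UMIs, a ratio of 4.49 against that floor. The counting intervals, taken without the floor, began at 6.47 in mesothelial-like and 3.37 in smooth muscle-like cells. Without cells holding at least 5 S100 UMIs the smooth muscle-like cells had 0 Nlrp3 CPM in both libraries and the mesothelial-like cells 4 and 0 UMIs. By the same value NK-like (0.765), regulatory T-like (1.03), adventitial fibroblast-like (1.29) and AT2-like cells (1.48) no longer passed 1.5-fold.

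Casp1, which cuts both precursors, was most abundant in monocytes and macrophages. Nonclassical monocyte-like cells had 78.3 and 73.7 CPM (1.06, 0.695 to 1.60), classical monocyte-like cells 56.3 and 80.5 CPM (0.699, 0.564 to 0.867), interstitial macrophage-like cells 58.3 and 56.3 CPM (1.04, 0.764 to 1.41) and alveolar macrophage-like cells 55.5 and 55.0 CPM (1.01, 0.842 to 1.21). The intervals of these 4 classes overlapped in the treated library. Casp1 was the only member higher in 0 classes. It was lower in 2 of 11, T cell-like cells at 7.81 and 15.1 CPM (0.518, 0.316 to 0.821) and regulatory T-like cells at 21.3 and 41.4 CPM (0.514, 0.280 to 0.905).

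Casp4, the sensor of cytosolic lipopolysaccharide and the neighbour of Casp1, stood at 131 and 132 CPM in interstitial macrophage-like cells (0.993, 0.814 to 1.21) and at 121 and 117 CPM in neutrophil-like cells (1.03, 0.904 to 1.18). Classical monocyte-like cells had 58.4 and 73.7 CPM (0.792, 0.637 to 0.986), and adventitial fibroblast-like cells 53.2 and 51.1 CPM (1.04, 0.538 to 2.08). Mesothelial-like cells had 115 and 33.1 CPM (3.48, 1.92 to 6.82) from 78 and 13 UMIs, and 3.25 without cells holding at least 5 S100 UMIs. The mean over single cells gave 0.917 for the same class, and thinning 0.817, on the other side of 1. Alveolar fibroblast-like cells had 65.0 and 40.1 CPM (1.62, 1.12 to 2.40), and thinning gave 1.22. Club cell-like cells had 28 and 6 UMIs (3.70, 1.501 to 10.9). Of 17 measured classes 3 were higher and 1, AT2-like cells at 0.524 from 12 and 23 UMIs, was lower.

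**Figure D5:**
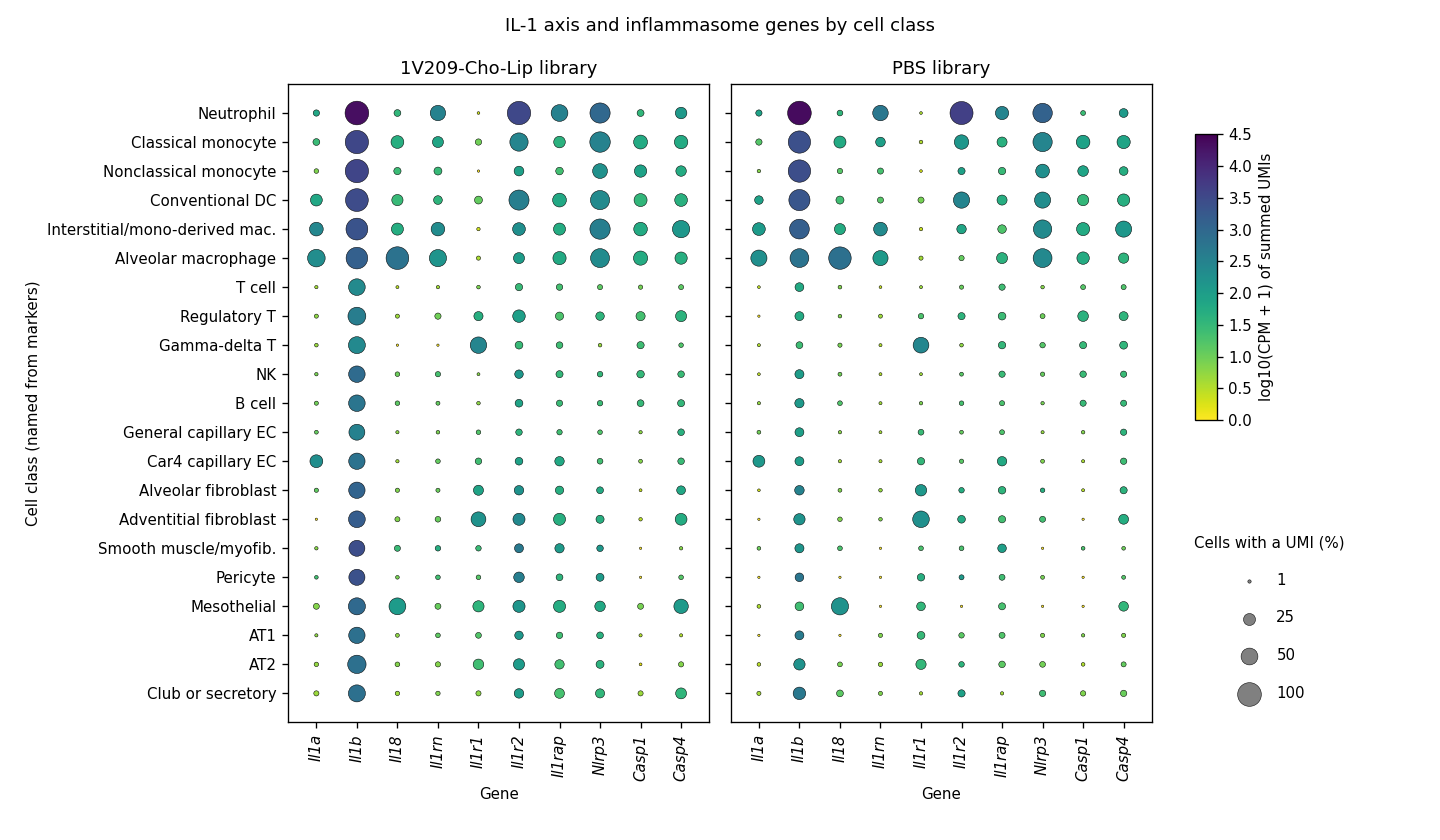
Level (colour, log10 of CPM plus 1) and share of cells with at least 1 UMI (area) of the 10 members in 21 classes of each library. Il1b in the neutrophil row is the darkest point of both panels; in the treated library Il1b is detected in at least 44.7% of the cells of every class. Il1r1 stands out in gamma-delta T-like and fibroblast-like rows, and Il18 in alveolar macrophage- and mesothelial-like rows.

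Class by class, the members that passed are set beside all genes of that class. In alveolar macrophage-like cells 2 of 10 members were higher and 0 lower, where 9.47% and 7.17% of genes were. In classical monocyte-like cells these counts were 3 and 0 of 10 (11.7% and 8.02% of genes), in nonclassical 1 and 0 of 8 (11.4% and 12.1%), and in conventional DC-like cells 1 and 0 of 9 (13% and 13.5%). Interstitial macrophage-like cells had 5 and 0 of 9 (14.5% and 12.4%). Among these myeloid classes the last had the most members past the limit, but not all of them stayed past it. Il1a did not without the Prg4-led cluster. Il1b and Il1r2 did not without cells holding at least 5 S100 UMIs.

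In lymphoid and endothelial classes most members past the limit were higher. T cell-like cells had 5 higher and 2 lower of 9 (11.8% and 6.87% of genes), B cell-like cells 6 and 0 of 10 (12.5% and 6.78%), NK-like cells 3 and 0 of 6 (13.9% and 10.9%), regulatory T-like cells 4 and 1 of 7 (15.9% and 8.71%) and gamma-delta T-like cells 1 and 0 of 2 (17.4% and 11.8%). General capillary endothelial-like cells had 4 and 1 of 10 (12.5% and 10.1%) and Car4 capillary endothelial-like cells 5 and 0 of 8 (13.4% and 8.82%). The higher members in all of these except gamma-delta T-like cells included Il1b, Il1r2 and Nlrp3, the 3 genes with the largest neutrophil-like share in the treated library.

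Structural and epithelial classes were similar. Alveolar fibroblast-like cells had 5 higher and 1 lower of 8 (15.6% and 13.6% of genes), adventitial fibroblast-like cells 4 and 0 of 6 (17.2% and 18.4%), smooth muscle-like cells 3 and 0 of 4 (20.2% and 22.5%) and pericyte-like cells 2 and 0 of 2 (28.0% and 14.9%). Mesothelial-like cells had 5 and 0 of 7 (18.9% and 12.4%). AT1-like cells had 3 and 1 of 5 (19.5% and 11.6%), AT2-like cells 5 and 1 of 8 (11.4% and 11.5%) and club cell-like cells 1 and 0 of 4 (23.4% and 9.52%). A member with few UMIs could pass only through the library in which it was high, so these counts are descriptions.

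Genes around the members were followed in lists. Their counts are to be read beside the shares of all genes given above for the whole library and each class. Of 20 genes for other inflammasome sensors, the adaptor and pyroptosis, 19 were measured over whole libraries: 4 were higher and 2 lower, with a median log2 ratio of -0.18 against -0.20 for all genes. Mefv, which encodes pyrin, was the highest at 29.8 against 8.11 CPM (3.67, 3.27 to 4.13), and the ATP receptor gene P2rx7 the lowest at 14.7 against 22.8 CPM (0.648, 0.588 to 0.714). Nek7, the NLRP3 partner, was at 1.12 and Ninj1, which ruptures the membrane of dying cells, at 1.28. In neutrophil-like cells 2 of 16 were higher and 6 lower (11.5% and 23.1% of genes). Ninj1 there had 162 against 345 CPM (0.468, 0.430 to 0.510) and the DNA sensor gene Aim2 13.9 against 32.4 CPM (0.431, 0.324 to 0.578). Nek7 had 28.9 against 17.3 CPM (1.67, 1.20 to 2.40). In interstitial macrophage-like cells 0 of 15 were higher and 3 lower, where 14.5% and 12.4% of all genes were. Among the 3 were Nlrc4 at 0.565 and the pore gene Gsdmd at 0.618, beside the higher Nlrp3 in the same cells.

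Of 17 genes of interleukin-1 and interleukin-18 receptor signalling, 3 were higher and 1 lower over whole libraries, with a median of -0.06. The adaptor gene Myd88 had 96.3 against 46.4 CPM (2.07, 1.97 to 2.19) and the brake gene Sigirr 12.8 against 19.4 CPM (0.656, 0.590 to 0.728). In neutrophil-like cells 0 of 16 were higher and 2 lower; the kinase gene Irak2 had 215 against 550 CPM (0.391, 0.365 to 0.420). In alveolar fibroblast-like cells, where Il1r1 was lower, 6 of 15 were higher and 2 lower (15.6% and 13.6% of genes). The median was 0.39 against -0.06 for all genes.

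A list of 20 genes known to be induced by interleukin-1 through NF-kappaB had 9 higher and 2 lower over whole libraries (median 0.43), where 8 of 10 dissociation genes were higher as well. In alveolar fibroblast-like cells 14 of 15 measured were higher and 0 lower (15.6% and 13.6% of genes), with a median of 0.92. The neutrophil chemokine gene Cxcl1 had 551 against 182 CPM there (3.03, 2.57 to 3.58), Nfkbiz 1169 against 525 CPM (2.23, 2.02 to 2.46) and Nfkbia, the inhibitor of NF-kappaB, 805 against 459 CPM (1.76, 1.58 to 1.96). Vcam1, the exception, had 273 against 344 CPM (0.793). Cxcl5 had 23.9 CPM in treated cells and 0 in PBS cells. In the same class, 9 of 10 genes of a list known for rising during tissue dissociation were higher (median 1.37; Fos 1.73, Dusp1 4.57), and so were 3 of 3 neutrophil RNA genes. The part of dissociation and of neutrophil RNA in the NF-kappaB list was not tested.

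The NF-kappaB list was higher in 9 and lower in 1 of 14 in interstitial macrophage-like cells (14.5% and 12.4% of genes), with a median of 0.78. There Cxcl2 had 4797 against 2265 CPM (2.12) and 7 of 10 dissociation genes were higher. In alveolar macrophage-like cells the list was higher in 6 and lower in 0 of 13 (9.47% and 7.17% of genes), with a median of 0.37. In classical monocyte-like cells it was higher in 2 and lower in 1 of 12 (11.7% and 8.02% of genes). In neutrophil-like cells 2 were higher and 5 lower of 15, where 11.5% of genes were higher and 23.1% lower, with a median of -0.46 against -0.20 for all genes. Ptgs2, which makes prostaglandins, had a ratio of 0.590 (0.568 to 0.612) there and Nfkbia 0.673 (0.653 to 0.694). Cxcl2 was at 0.956, and Steap4 was the highest at 629 against 263 CPM (2.39, 2.20 to 2.61).

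Of 11 other genes of the interleukin-1 family, 6 were measured over whole libraries, 3 higher and 2 lower. Il36g, which encodes interleukin-36 gamma, had 81.7 against 18.7 CPM (4.38, 4.07 to 4.72) over whole libraries and 302 against 323 CPM (0.935, 0.863 to 1.01) in neutrophil-like cells. The interleukin-33 receptor gene Il1rl1 was the lowest of the list at 79.3 against 202 CPM (0.392, 0.377 to 0.408), and Il33 had 16.5 against 8.54 CPM (1.93, 1.71 to 2.19).

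The genes with the most similar pattern over classes were sought among 11743 genes by Pearson correlation of log2(CPM + 1) over the 42 class-and-library sums. The sums share libraries, depth and neutrophil RNA, so these values are descriptions. Il1b was closest to Clec4e (0.94), Trem3 (0.93) and Cd14 (0.93), which encode receptors of myeloid cells. Nlrp3 was closest to Cxcl2 (0.95), Alox5ap (0.93) and Il1rn (0.92), and Il1rn to Nlrp3 and Cxcl2 (0.92 each) and Ccl6 (0.89). Il1r2 was closest to Il1b (0.90), S100a8 and S100a9 (0.89 each). Casp1 was closest to Myo1g, Naip2 (0.87 each) and Cyth4 (0.86), and Casp4 to Trafd1 (0.69), Gbp2b (0.68) and Dhx58 (0.67), which are known as interferon-induced genes. Il1a (Pik3r6, 0.78), Il18 (Fcor, 0.80), Il1r1 (Pard3 and Abi3bp, 0.77 each) and Il1rap (Arrdc4, 0.76) had nearest neighbours between the values of Casp1 and Casp4.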

How the data were processed

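The 2 lung libraries were analysed. The deposited counts are whole UMI numbers per gene and barcode, made by the authors with Cell Ranger 9.0.1, per the file headers, on mm10, per the submitters' processing notes. No source used here names the annotation. Barcodes under 500 UMIs or 200 genes, or above 20% mitochondrial UMIs, were dropped; the lowest deposited total was 500. Filters kept 13720 of 13740 treated and 14560 of 14622 PBS barcodes. Scrublet, as carried by scanpy 1.11.5, then marked 1455 (10.6%) and 1906 (13.0%) as doublets (expected rate 0.8% per 1000 barcodes), which were left out.

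Cells of both libraries entered 1 clustering on 2898 variable genes (30 components, 15 neighbours, Leiden resolution 2; 8 of 74 clusters divided at 0.5, giving 98), without the members, their pathway lists, or cytokine, interferon, MHC and stress genes. A cluster was named from at least 3 and 50% of a type's markers at log2 1 above the rest; 968 treated and 752 PBS cells stayed mixed or unnamed, and these thresholds were set after clusters had been seen. UMIs were summed per class and library. CPM carry exact Poisson intervals, shares exact Clopper-Pearson intervals and ratios exact conditional binomial intervals, all at 95%. A zero was compared at a floor of 3 counts, and 0.5 counts were added for list medians only.

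The members, lists and rules were chosen with earlier results of these data known. All members were named; of each list up to 4 genes with the most UMIs and the highest and lowest ratios, and for each member the 5 classes with the highest CPM. Other classes, Gsdmd and the cluster genes were named after their values were seen. The interval code was tested on simulated data. Motifs were searched in RefSeq promoters, for which all 10 members had entries, and the 10 gene identifiers matched GENCODE vM21. The software was scikit-learn 1.9.0, igraph 0.11.9, scipy 1.17.1, numpy 2.4.6, matplotlib 3.10.9 and pandas 2.3.3 under Python 3.11.15.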

Additional observations from a re-analysis of the deposited data

Results flagged for a closer look

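Il1rn differed in direction between classes. In Car4 capillary endothelial-like cells its ratio was 3.85 (1.60 to 10.6), from 23 and 7 UMIs, and in neutrophil-like cells it was 0.611 (0.571 to 0.653), from 3434 and 1179 UMIs. Of the 23 UMIs, 10 came from a cluster of 14 treated and 0 PBS cells, and without it the ratio was 2.27 (0.842 to 6.72). Without cells holding at least 5 S100 UMIs it was 1.76 (0.537 to 6.17), from 8 and 6 UMIs. That kept 622 of 685 treated and 838 of 842 PBS cells of the class. S100a8 was found in 47.9% and 7.84% of the Car4 capillary cells, and the difference between the classes was not tested.

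Il1r1 did so as well. In classical monocyte-like cells its ratio was 3.49 (1.33 to 11.6), from 28 and 5 UMIs, and in general capillary endothelial-like cells it was 0.593 (0.405 to 0.857), from 46 and 87 UMIs. Without cells holding at least 5 S100 UMIs the classical monocyte-like ratio was 4.33 (1.61 to 14.6) and the general capillary one 0.581 (0.392 to 0.850). This difference was not tested either.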

How the results depend on the processing

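No paired analysis was possible because each group has 1 library. With class shares set equal, 0 members passed 1.5-fold over whole libraries in place of 5, and Il1rn (0.733), Il1r2 (0.869) and Nlrp3 (0.874) changed direction; this setting removes the differing class shares by construction. In neutrophil-like cells the count of 1 became 2 with doublets kept, with cell-by-cell marker gating and with a minimum of 1 UMI, and 0 with median-of-ratios scaling. TMM scaling also gave 1, but Casp1 on the higher side (1.57) in place of Il1rn (0.736). The Il1b share of neutrophil-like cells, 78.5% in the treated library, was 67.6% with doublets kept, 77.7% with a stricter cell filter, 79.7% at Leiden resolution 1 and 83.9% with marker gating. The PBS share of 68.0% was 54.2%, 66.0%, 68.6% and 68.9% under the same settings. Il1rn in conventional DC-like cells reversed with marker gating (0.350), the mean of per-cell CPM (0.925) and thinning (0.935), and Casp4 in mesothelial-like cells with the mean of per-cell CPM (0.917) and thinning (0.817); the cause was not tested. Of 695 values under all settings, 542 moved less than counting error, 145 moved more and 8 reversed, and 22 calls were lost. Reversals were counted only for ratios past 1.5-fold in the main setting. Other values that crossed 1 are not among the 8, such as Il1rn in classical monocyte-like cells (0.778, or 1.25 with thinning). Further lost calls include Il1a in Car4 capillary endothelial-like cells (1.48 with the mean of per-cell CPM, 1.42 with thinning), Il1r1 in general capillary endothelial-like cells (0.711 with marker gating) and Casp4 in alveolar fibroblast-like cells (1.49 at resolution 1). Settings that weight neutrophil clusters alike, leave out the Prg4-led macrophage cluster leave out a cluster of dividing regulatory T-like cells, or leave out the 3 clusters named beside Il1r2, Il1r1 and Il1rn were chosen after seeing the data. Thinning left out 952 treated and 1357 PBS cells. Members with few UMIs in a class, such as Casp1 and Il1r1, are limited by depth.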

Other observations

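Cells outside the compared classes also held members. Cluster 26, unnamed and led by predicted genes and Lypd6b, had 214 treated and 45 PBS cells. Its Il1b was 12257 and 12248 CPM, its Il1r2 7518 and 12336 CPM and its Nlrp3 2206 and 2498 CPM. Its Il1rap was 1999 and 1415 CPM, above the 348 and 298 CPM of neutrophil-like cells, and it held 11.6% and 3.16% of all Il1rap UMIs. The neutrophil markers S100a8 and S100a9 were found in 77.6% and 92.5% of its treated cells. In its PBS cells these shares were 24.4% and 62.2%.

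Cluster 32, led by Crabp2, Prl2c2 and Def8, had 37 treated and 123 PBS cells. It held 13.2% and 29.9% of all Casp1 UMIs, 5.92% and 19.96% of Casp4 and 6.20% and 19.98% of Il1r1. Its median cell held 60446.5 UMIs, against 2506 and 2198 in the whole libraries. These shares therefore go with the large RNA content of its cells and do not by themselves show enrichment. Its Casp1 was at 68.0 and 69.5 CPM and its Casp4 at 71.1 and 63.5 CPM, while Il1r1 was 17.8 and 27.4 CPM and Il1b 131 and 41.1 CPM. The higher PBS share of Casp1 UMIs in cells that were not compared, 34.4% against 19.0%, contains this cluster.

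Basophil or mast cell-like cells (42 treated and 36 PBS, too few to compare) had Nlrp3 at 1340.2 and 2799.8 CPM and Il1b at 6919 and 5799 CPM. Their S100a8 was 7238 and 1432 CPM.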
